A study of Mus musculus with 12 samples.

Results

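In all, 10 genes of the glucocorticoid hormone response were followed across whole skin from 4 groups of mice: the glucocorticoid receptor gene Nr3c1, the hormone-activating enzyme gene Hsd11b1, and 8 genes that the hormone is known to induce, Fkbp5, Zbtb16, Glul, Tsc22d3, Sgk1, Ddit4, Klf9 and Errfi1. They were taken by symbol from the 53379 gene IDs of the count tables, and all 10 were among the 23635 genes with enough reads to be tested. The list was drawn up with measured values of these libraries known, so the values of the 10 genes are a description and carry no p-value. All mice were 3 months old and of the strain label C57BL/6 & B6D2, and all carried Prss56Cre, a Cre recombinase under the Prss56 promoter that marks boundary cap cells and the Schwann lineage they give rise to, and R26tdTom, a fluorescent reporter. Control mice carried nothing further, and Nf1-KO mice carried Nf1flox/- in addition, a floxed and a null allele of the RAS regulator neurofibromin. The genotype label makes 1 of the alleles null in every cell, with or without Cre, so the comparisons between genotypes cannot tell that allele from the recombined one. Skin was either uninjured or taken 14 days after injury, with 3 libraries for each genotype in each skin state, 12 in all.

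Glucocorticoids such as mouse corticosterone enter the cell and bind the receptor encoded by Nr3c1, which is held ready by HSP90 chaperones, then moves to the nucleus and binds DNA as a dimer at palindromic glucocorticoid response elements. Inside tissues, 11-beta-hydroxysteroid dehydrogenase type 1 (Hsd11b1) regenerates active hormone from its inert keto form, and the type 2 enzyme (Hsd11b2) does the reverse. Keratinocytes, fibroblasts and immune cells of the skin all carry the receptor, and the hormone is known for thinning skin, slowing wound repair and damping inflammation.

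To show the sequence next to these genes, RefSeq promoter windows (build GRCm38.p6) were searched on both strands for the hexamers AGAACA and TGTTCT and for the palindrome they form when 3 bases of any kind lie between them in that order; every palindrome thus also holds both hexamers. Each window spans 250 bases before to 50 bases after a transcription start. Of 32851 windows, 3 held the palindrome (0.00913%), and 1 of those 3 belonged to Sgk1. A hexamer lay in 6233 windows (19.0%). Windows were given for 8 of the 10 genes (16 windows in all), and 4 of these held a hexamer (25.0%): 3 of the 6 Sgk1 windows and 1 of the 3 Tsc22d3 windows. Of 48 windows of 37 further hormone targets described below, 7 held a hexamer (14.6%) and 0 the palindrome. Upstream stretches of 3 genes are shown: that of Sgk1 for its palindrome, that of Tsc22d3 for its hexamer, and that of Fkbp5, which differed 9.38-fold between the skin states of Nf1-KO mice, because neither sequence was found in it. The Sgk1 stretch is chr10:21993640-21993889, plus strand, with the palindrome in capitals at 21993701 to 21993715, 189 to 175 bases before the start. A separate TGTTCT near the left end of the Sgk1 stretch is left in small letters. The Tsc22d3 stretch is chrX:140600660-140600772, minus strand, with the hexamer in capitals at 140600702 to 140600707, 185 to 180 bases before the start. Of its 250 upstream bases, only the 113 beyond the annotated gene body are shown, and the start lies inside that body. The Fkbp5 stretch is chr17:28486150-28486399, minus strand. Both it and the Sgk1 stretch lie inside the annotated gene bodies, which start further upstream. A match is a run of letters, not a measured binding site, and the absence of one concerns these windows alone.
Sgk1: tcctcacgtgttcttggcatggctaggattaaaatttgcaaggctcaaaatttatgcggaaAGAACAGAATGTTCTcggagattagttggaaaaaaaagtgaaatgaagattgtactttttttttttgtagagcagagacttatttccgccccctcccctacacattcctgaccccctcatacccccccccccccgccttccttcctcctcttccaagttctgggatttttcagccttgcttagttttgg
Tsc22d3: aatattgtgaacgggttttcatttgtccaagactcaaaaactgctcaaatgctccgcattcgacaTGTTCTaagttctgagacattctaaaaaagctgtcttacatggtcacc
Fkbp5: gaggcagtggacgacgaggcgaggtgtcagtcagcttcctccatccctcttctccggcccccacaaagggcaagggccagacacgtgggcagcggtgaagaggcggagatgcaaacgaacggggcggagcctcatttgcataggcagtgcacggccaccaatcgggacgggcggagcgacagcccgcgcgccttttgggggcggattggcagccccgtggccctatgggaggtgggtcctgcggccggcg

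The libraries held 8817013 to 16809687 counts. Levels are TMM-scaled CPM, counts relative to a common library total, and fold changes come from an edgeR fit of all 12 libraries, in which a gene was called at an adjusted p under 0.05. The labels do not say whether the 3 libraries of a group are separate animals, so the tests measure the spread between these libraries. Nf1 itself was at 9.21 to 14.3 CPM in control uninjured, 8.96 to 9.96 in Nf1-KO uninjured, 9.56 to 16.6 in control injured and 8.75 to 15.8 in Nf1-KO injured libraries. It was not called between genotypes (log2 fold change -0.31 ± 0.28 SE, edgeR adjusted p = 0.884, uninjured; -0.11 ± 0.28, adjusted p = 0.989, injured), and counts over the whole gene say nothing of which allele was read. Female-specific Xist was at 0.709 to 2.95 raw CPM in uninjured and 436 to 627 in injured libraries, and the Y-linked Ddx3y at 68.2 to 93.3 and 0 to 0.0595, in both genotypes. Skin state and sex therefore cannot be told apart in any comparison of injured with uninjured skin. Olfactory and vomeronasal receptor genes, taken as a measure of background reads, were at 0.0953 to 0.337 CPM per kb in uninjured and 0.00229 to 0.0533 in injured libraries, highest in control uninjured libraries 1 (0.337) and 2 (0.265), against 0.0953 in library 3. Below, values of a group are given for libraries 1, 2 and 3 in that order.

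The receptor gene itself was lower in injured skin of both genotypes. Nr3c1 was at 128, 134 and 143 CPM in control uninjured skin and at 75.8, 93.2 and 88.1 in control injured skin. In Nf1-KO mice it was at 139, 128 and 134 CPM uninjured and at 92.4, 101 and 97.2 injured. Every injured library was below every uninjured one of its genotype, and the groups of the same skin state overlapped between genotypes. The injured level was 1.58-fold lower in control skin (log2 fold change -0.66 ± 0.16 SE) and 1.38-fold lower in Nf1-KO skin (-0.46 ± 0.16). In bulk tissue, fewer cells that carry a transcript and less of it per cell cannot be told apart.

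Hsd11b1 (chromosome 1, 193221634 to 193264075, minus strand, mm10 as for the other positions), whose product regenerates the active hormone, was the least abundant of the 10 genes in uninjured skin and went the other way from the receptor. It was at 6.39, 4.30 and 3.34 CPM in control uninjured and 5.11, 3.14 and 4.34 in Nf1-KO uninjured skin. Control injured skin had 4.71, 11.8 and 5.48 CPM, and Nf1-KO injured skin 7.44, 14.9 and 16.8. All 3 Nf1-KO injured libraries were above all uninjured libraries, while the control groups overlapped. The difference with injury was 3.10-fold in Nf1-KO skin (log2 1.63 ± 0.41) and 1.59-fold in control skin (0.66 ± 0.40), the latter 0.19 on the log2 scale without control injured library 2. Its gene body overlaps that of Lamb3, a gene of the basal keratinocyte on the opposite strand, without shared exons. Lamb3 held 16927 counts over all libraries and Hsd11b1 held 1167.

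Fkbp5 (chromosome 17, 28399094 to 28517527, minus strand) encodes a co-chaperone that lowers the receptor's affinity for hormone and is among the genes the hormone induces most strongly. It was at 33.7, 34.8 and 117 CPM in control uninjured skin and at 218, 223 and 223 in Nf1-KO uninjured skin. In injured skin it was at 33.9, 67.0 and 39.2 CPM in control and at 16.4, 27.5 and 26.9 in Nf1-KO libraries. The Nf1-KO uninjured libraries lay close together and above all other libraries, and the Nf1-KO injured libraries lay below all others. Control uninjured library 3 stood well above the other two of its group. The difference between skin states was 9.38-fold in Nf1-KO mice (-3.23 ± 0.48) and 1.33-fold in control mice (-0.41 ± 0.44). Between genotypes, Nf1-KO was 3.57-fold higher in uninjured skin (1.83 ± 0.45) and 1.98-fold lower in injured skin (-0.99 ± 0.45). Without control uninjured library 3 the uninjured difference was 6.47-fold, and the difference with injury in control skin turned to 0.56 on the log2 scale, in the direction of higher in injured skin. Leaving out control uninjured libraries 1 and 2, both of high background, leaves library 3 alone in that group. Here and below, the SE of that fit rests on the spread within the other groups. The uninjured genotype difference was then 1.84-fold (0.88 ± 0.39) and the difference with injury in control skin was -1.32 ± 0.35. The sizes of both, and the sign of the second, thus depend on which control libraries are kept.

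Zbtb16 (chromosome 9, 48654297 to 48836222, minus strand), also called PLZF, is a zinc finger repressor and a long-known hormone target in many cell types. Its levels were 43.2, 33.9 and 55.3 CPM in control uninjured, 103, 97.5 and 114 in Nf1-KO uninjured, 9.86, 22.2 and 19.0 in control injured and 4.29, 9.03 and 6.63 in Nf1-KO injured skin. No 2 of the 4 groups overlapped. Injured skin was 2.59-fold lower than uninjured in control (-1.37 ± 0.29) and 15.8-fold lower in Nf1-KO mice (-3.98 ± 0.32). Nf1-KO skin was 2.38-fold higher than control when uninjured (1.25 ± 0.28) and 2.57-fold lower when injured (-1.36 ± 0.30). Without control uninjured libraries 1 and 2, the uninjured difference was 1.85-fold (0.89 ± 0.43).

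Tsc22d3 (chromosome X, 140539528 to 140600659, minus strand) encodes GILZ, a leucine zipper protein that mediates part of the anti-inflammatory action of the hormone, and it was the most abundant of the 10 genes in uninjured skin. It was at 332, 574 and 838 CPM in control uninjured and 811, 1003 and 920 in Nf1-KO uninjured skin. In injured skin it was at 124, 208 and 147 CPM in control and 59.2, 123 and 151 in Nf1-KO libraries. All 6 injured libraries were below all 6 uninjured ones, and the genotypes overlapped in both skin states. Injured skin was 3.64-fold lower in control (-1.86 ± 0.36) and 8.22-fold lower in Nf1-KO mice (-3.04 ± 0.37). The genotype difference in uninjured skin was 1.57-fold (0.65 ± 0.34), and 1.06-fold (0.08 ± 0.44) without control uninjured libraries 1 and 2.

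Glul (chromosome 1, 153899944 to 153909723, plus strand), which encodes glutamine synthetase, an enzyme induced by the hormone in muscle and other tissues, had a pattern of its own: low in control uninjured skin and high in the other 3 groups. It was at 39.2, 46.0 and 31.9 CPM in control uninjured skin and at 108, 130 and 186 in Nf1-KO uninjured skin. Control injured skin had 123, 104 and 91.3 CPM and Nf1-KO injured skin 102, 90.8 and 116. Control uninjured libraries lay below all 9 others, which overlapped. Nf1-KO was 3.62-fold higher in uninjured skin (1.86 ± 0.23) and did not stand apart in injured skin (-0.04 ± 0.22). The difference with injury was 2.72-fold upward in control skin (1.44 ± 0.22), and in Nf1-KO skin the groups overlapped (-0.46 ± 0.22). Glul was 1 of 7 genes called between the uninjured genotypes, with Gm8210, Mir8114, Nuak1, Slfn9, Srp9 and Teddm2. Teddm2 on the opposite strand and the microRNA gene Mir8114 on the same strand share exonic sequence with it and are both among the 7. Reads of the shared sequence cannot be told apart, for Teddm2 without strand information and for Mir8114 even with it. Glul held 15106 counts over all libraries, Teddm2 2121 and Mir8114 1543. The call of Glul was made in 17 of 20 settings and was lost without control uninjured library 1, without library 3, and without libraries 1 and 2 together, although the fold without both was 4.32 (2.11 ± 0.35).

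**Figure D1:**
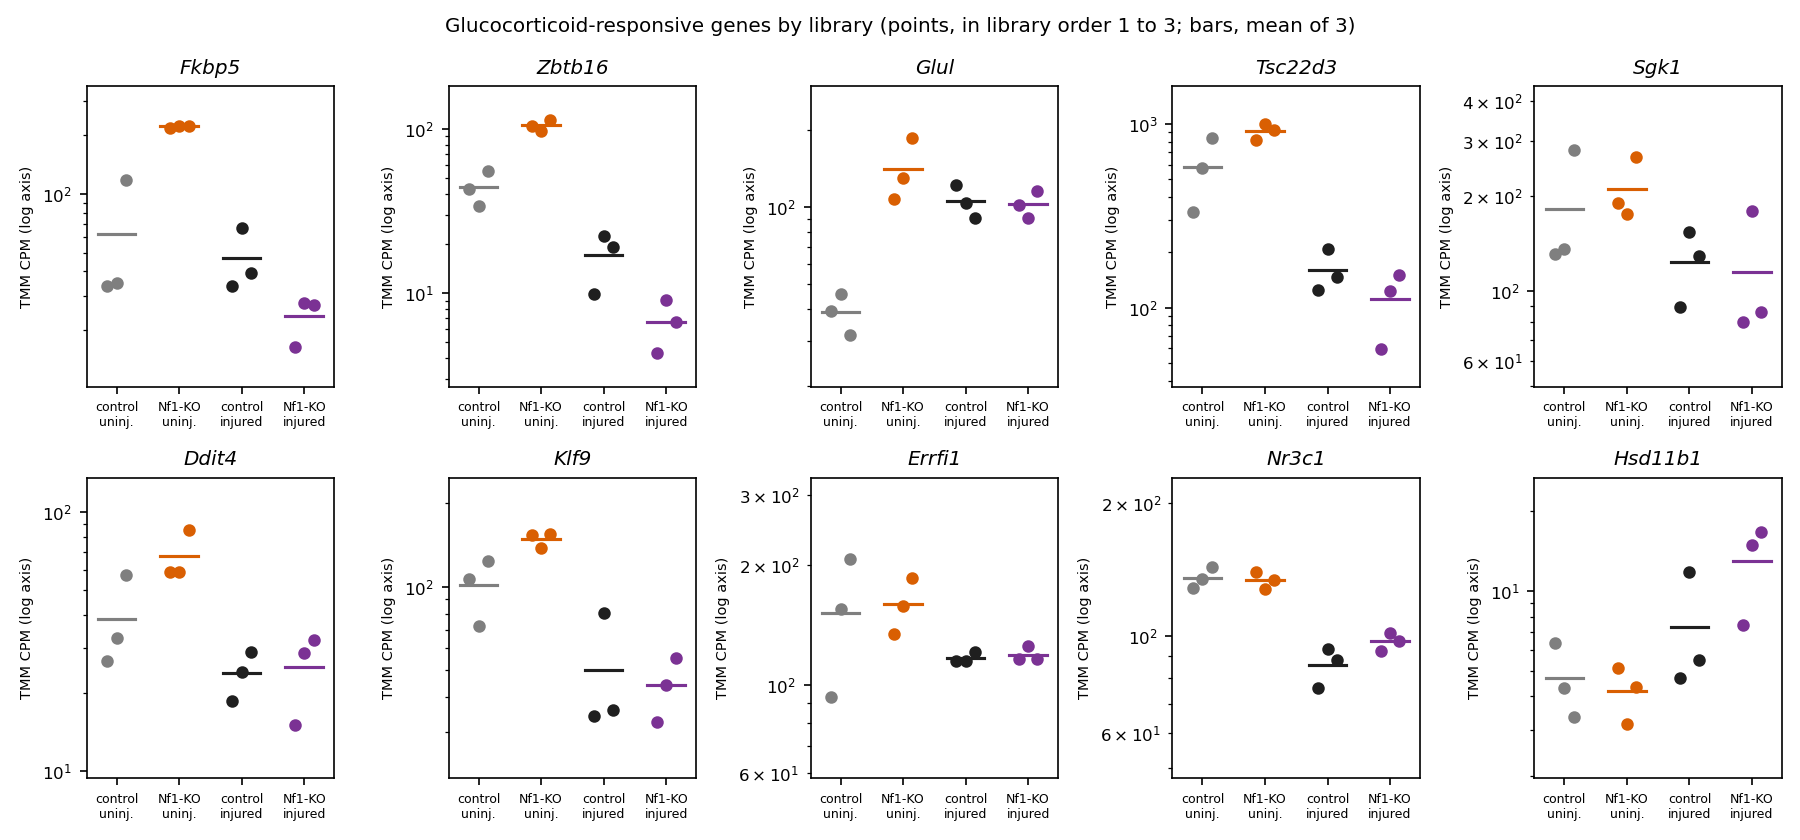
Level of each of the 10 genes in each library, as TMM-scaled CPM on a log axis with its own range per gene; points are libraries 1 to 3 of a group and bars the mean of 3. Fkbp5 and Zbtb16 were highest in Nf1-KO uninjured and lowest in Nf1-KO injured skin, Glul was low only in control uninjured skin, and Nr3c1 separated by skin state alone.

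The remaining 4 targets differed less. Ddit4 (chromosome 10, 59949669 to 59951834, minus strand), an inhibitor of mTORC1 signalling also called REDD1, was at 26.5, 32.5 and 57.1 CPM in control uninjured and 58.6, 58.7 and 85.0 in Nf1-KO uninjured skin, groups that did not overlap by a narrow margin. In injured skin it was at 18.6, 24.1 and 28.8 CPM in control and 15, 28.6 and 32.2 in Nf1-KO libraries, which overlapped. Injured skin was 2.67-fold lower in Nf1-KO mice (-1.42 ± 0.31), without overlap, and 1.63-fold lower in control mice (-0.70 ± 0.31), with overlap. Klf9 (chromosome 19, 23141226 to 23168134, plus strand), a Krüppel-like repressor, was at 107, 72.0 and 124 CPM in control uninjured and 153, 138 and 154 in Nf1-KO uninjured skin, again without overlap (log2 0.55 ± 0.30). It was at 34.2, 80.4 and 36.1 CPM in control injured and 32.7, 44.4 and 55.4 in Nf1-KO injured skin. Injured skin was 2.01-fold lower in control (SE 0.30 on the log2 scale), with overlap, and 3.36-fold lower in Nf1-KO mice (-1.75 ± 0.31), without overlap. The control log2 value for Klf9 ran from -1.48 without control injured library 2 to -0.72 without control uninjured library 3. Without control uninjured libraries 1 and 2, the genotype difference in uninjured skin was 1.15-fold for Ddit4 and 1.17-fold for Klf9.

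Sgk1 (chromosome 10, 21882184 to 21999903, plus strand), a kinase that regulates sodium channels and the carrier of the palindrome shown above, varied as much within groups as between them. It was at 132, 136 and 280 CPM in control uninjured, 191, 175 and 268 in Nf1-KO uninjured, 88.9, 154 and 129 in control injured and 79.7, 180 and 85.7 in Nf1-KO injured skin. All groups compared overlapped. The difference with injury in control skin, -0.56 ± 0.35 on the log2 scale, came to -0.003 without control uninjured library 3, and that in Nf1-KO skin, -0.88 ± 0.36, came to -1.35 without Nf1-KO injured library 2. Without control uninjured libraries 1 and 2, the first was -1.17 ± 0.43 and the uninjured genotype difference turned to -0.44 ± 0.44. Errfi1 (chromosome 4, 150853919 to 150868892, plus strand), an inhibitor of the EGF receptor, was the steadiest of the targets: 92.9, 155 and 208 CPM in control uninjured, 134, 158 and 186 in Nf1-KO uninjured, 114, 115 and 121 in control injured and 116, 125 and 116 in Nf1-KO injured skin. Its genotype differences were 0.07 ± 0.23 uninjured and 0.03 ± 0.23 injured on the log2 scale, the latter changing sign under other scalings. The uninjured value turned to -0.18 without control uninjured library 1 and to -0.42 ± 0.25 without control uninjured libraries 1 and 2. Injured libraries were 1.34-fold lower without overlap in Nf1-KO skin (-0.42 ± 0.24) and overlapped with uninjured ones in control skin (-0.38 ± 0.24, and 0.02 without control uninjured library 3).

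Counted over the 10 genes and read beside all 23635 tested, the comparisons of skin states called many genes of every kind. In control skin, 5 of the 10 were called (Glul higher; Zbtb16, Tsc22d3, Klf9 and Nr3c1 lower), against 55.3% of all genes, with 22.8% called higher and 32.5% lower. An unadjusted p under 0.05 was reached by 6 of the 10 (60.4% of all genes). DESeq2 also called 6, Ddit4 in addition. Its shares are taken over the genes to which it gave an adjusted p, here 17366 of 37131 (46.8%). Groups did not overlap for 3 of the 10 in the lower direction (36.6% of all genes) and for 1 in the higher (25.8%). In Nf1-KO skin 7 were called (Hsd11b1 higher; Fkbp5, Zbtb16, Tsc22d3, Ddit4, Klf9 and Nr3c1 lower), against 37.4% of all genes, 19.1% higher and 18.4% lower. An unadjusted p under 0.05 was reached by 8 (48.1%), and DESeq2 called 8, Sgk1 in addition (10345 of 33279 genes, 31.1%). There 7 did not overlap in the lower direction (27.9%) and 1 in the higher (23.6%). The genes lower in both genotypes were Zbtb16, Tsc22d3, Klf9 and Nr3c1. Since the list was chosen on these libraries, nothing is read from these counts.

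Between genotypes few genes of any kind were called. In uninjured skin 1 of the 10 was called, Glul, against 0.0296% of all genes, 0.0254% higher and 0.00423% lower, and 4 had an unadjusted p under 0.05 (8.34% of all genes). DESeq2 called 3, Fkbp5, Zbtb16 and Glul, against 60 of the 19797 genes to which it gave an adjusted p (0.303%). Nf1-KO libraries all lay above control for 5 of the 10 (Fkbp5, Zbtb16, Glul, Ddit4 and Klf9), against 8.79% of all genes, and all below for 0 (6.04%). In injured skin none of the 10 and none of 23635 genes was called by edgeR (0.0%). An unadjusted p under 0.05 was reached by 1 of the 10 and 10.7% of all genes (2532). In the same skin DESeq2 called 108 of 24611 genes with an adjusted p (0.439%), Zbtb16 among them. Nf1-KO libraries there all lay below control for 2, Fkbp5 and Zbtb16 (2.67%), and all above for 0 (6.37%). Both of these genes thus lay wholly above control in uninjured and wholly below it in injured skin, as did 66 of 23635 genes (0.279%), while 75 (0.317%) did the reverse.

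The difference between the injury responses of the genotypes was largest in size for Fkbp5 (log2 -2.82 ± 0.64), Zbtb16 (-2.61 ± 0.41) and Glul (-1.90 ± 0.31). It was -1.18 ± 0.49 for Tsc22d3, and between -0.74 and 0.97 for the other 6. By edgeR none of the 23635 genes was called for it (0.0%), with 4 of the 10 and 10.8% of all genes at an unadjusted p under 0.05. DESeq2 called 37 of the 22685 genes to which it gave an adjusted p (0.163%), 3 of them Fkbp5, Glul and Zbtb16. Without control uninjured libraries 1 and 2, the difference was -1.87 ± 0.48 for Fkbp5, -2.26 ± 0.54 for Zbtb16 and -2.16 ± 0.40 for Glul. On the same libraries it was -0.62 ± 0.55 for Tsc22d3, and it changed sign for Sgk1 (0.33 ± 0.55) and Errfi1 (0.45 ± 0.31). For Fkbp5 it was 13.8-fold (-3.78) without control uninjured library 3. These comparisons share the control uninjured libraries with the genotype comparison in uninjured skin and with injury in control skin, so they are not independent of them.

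**Figure D2:**
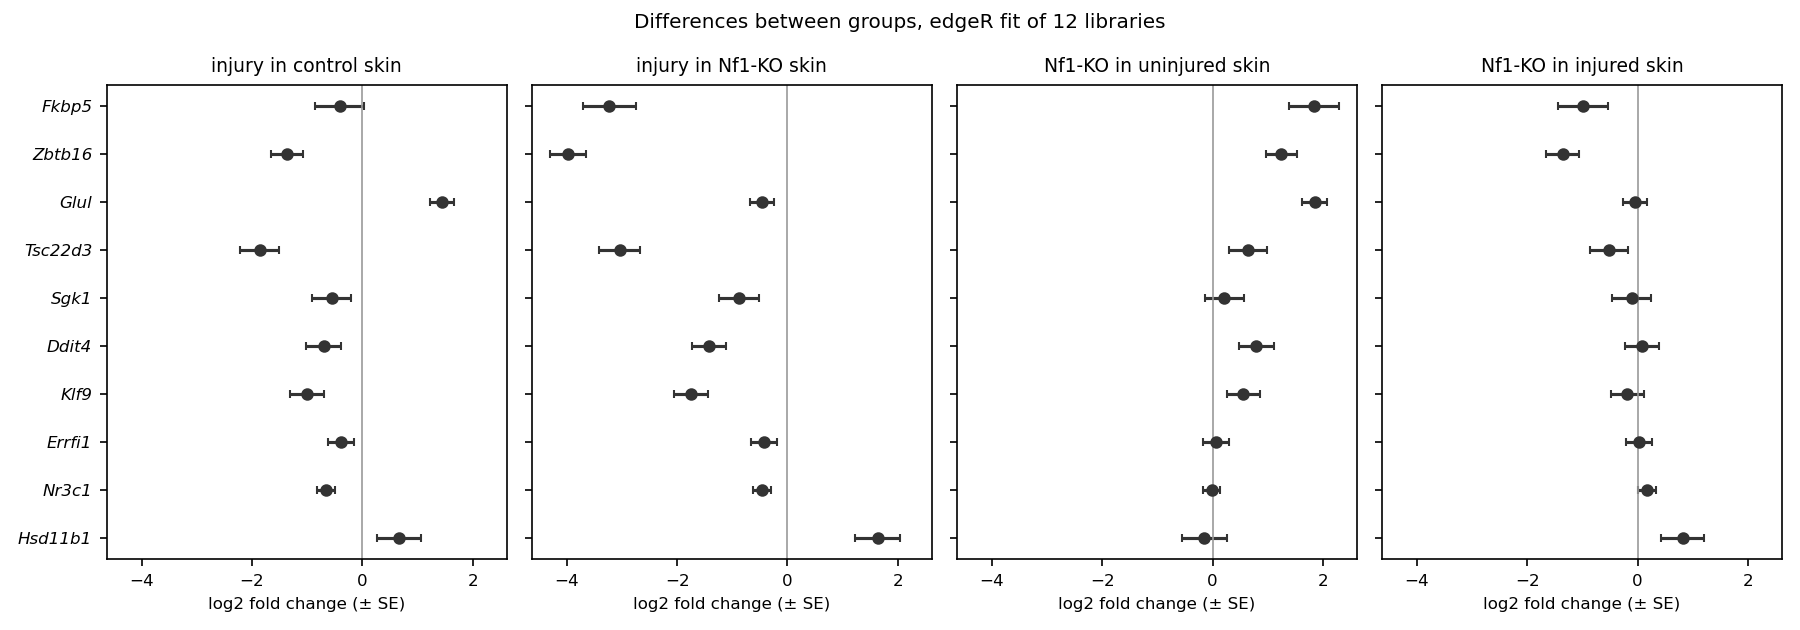
Log2 fold change with its standard error (horizontal bars) for each of the 10 genes in the 4 comparisons, from the edgeR fit of 12 libraries; positive values mean higher in injured skin (first 2 panels) or in Nf1-KO skin (last 2). Fkbp5, Zbtb16 and Tsc22d3 lie between -3.98 and -3.04 with injury in Nf1-KO skin, and Fkbp5 and Zbtb16 are on opposite sides of 0 in the genotype comparisons.

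Within groups, single libraries tended to be high or low across the 10 genes. The same count was not made over all genes. Control uninjured library 3 was the highest of its group for 8 of the 10 genes, control injured library 1 the lowest for 9, and Nf1-KO injured library 1 the lowest for 8. Control uninjured library 3 was also the one with the lowest background of its group. The part of these shifts across the 10 genes in the group differences was not tested beyond the values without single libraries given above.

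Per kilobase of exon, the order of levels changed with the group. Tsc22d3 was highest in control uninjured (134 ± 58.3 CPM per kb, SD, n = 3) and Nf1-KO uninjured skin (210 ± 22.1), clear of the gene below it, and Hsd11b1 was last (1.10 ± 0.37 and 0.987 ± 0.233). Between them in control uninjured skin, Errfi1 (42.4), Sgk1 (37.2), Ddit4 (22.1), Klf9 (21.0) and Nr3c1 (17.6) formed a run of overlapping neighbours, and below them Glul (11.8), Zbtb16 (8.35) and Fkbp5 (6.54) formed another. In Nf1-KO uninjured skin Glul (42.5) stood level with Errfi1 (44.5) and Sgk1 (43.1), and Fkbp5 (23.4) and Zbtb16 (19.9) stood above Nr3c1 (17.4). In injured skin the top was shared: Tsc22d3 (36.8), Errfi1 (32.6) and Glul (31.9) overlapped in control libraries, and Errfi1 (33.2), Glul (31.0), Tsc22d3 (25.6) and Sgk1 (23.5) in Nf1-KO libraries. Zbtb16 was last in Nf1-KO injured skin (1.26 ± 0.45), below Hsd11b1 (3.07 ± 1.16) and Fkbp5.

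Genes with the most similar profile were sought among 13703 genes averaging at least 2 CPM, by the root mean square difference of mean-centred log2 CPM over the 12 libraries, which share skin state, sex and background. For Fkbp5 the nearest was Tsc22d3 (0.68), then Zbtb16 (0.68), the potassium channel gene Kcnj15 (0.69), the alcohol dehydrogenase gene Adh1 (0.69) and the serotonin transporter gene Slc6a4 (0.71). Klf9 ranked 6 and Ddit4 ranked 9, while Glul ranked 5936 and Hsd11b1 ranked 11687. For Zbtb16 they were Dlk2 (0.36), Fam180a (0.45), Krt15 (0.47), Cfap57 (0.48) and Tsc22d3 (0.49). Krt15, a keratin of basal keratinocytes, averaged 5530 CPM in control uninjured, 7684 in Nf1-KO uninjured, 1354 in control injured and 915.8 in Nf1-KO injured skin. For Hsd11b1 they were Zfp521 (0.28), the lysophosphatidic acid receptor gene Lpar1 (0.31), Amdhd2 (0.35), Mageh1 (0.35) and Soga1 (0.36).

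Cell type markers moved with skin state and in part with genotype. Summed markers of the growing hair follicle (10 genes) ran from 22.1 to 92.0 CPM over uninjured and from 9009 to 29570 over injured libraries. Adipocyte markers (9 genes) ran from 87.6 to 392 CPM uninjured and 1312 to 3338 injured, and macrophage markers (9 genes) from 156 to 194 and 501 to 926 in control and from 196 to 255 and 819 to 1935 in Nf1-KO skin. Fibroblast markers (8 genes, all called higher in both genotypes) ran from 1064 to 3691 CPM uninjured and 6320 to 19540 injured, melanocyte markers from 21.8 to 117 and 509 to 1605, and neutrophil markers from 24.8 to 65.5 and 430.0 to 767. Of 6 neutrophil markers tested, 3 were called higher in control and 4 in Nf1-KO skin, and 0 lower. In each injured group 1 of the 7 summed neutrophil genes was at 0 counts, and in each uninjured group 0 were. Basal keratinocyte markers (8 genes, Krt15 included) were at 15580 to 21980 CPM in control uninjured, 19430 to 25490 in Nf1-KO uninjured, 12820 to 14250 in control injured and 7771 to 10930 in Nf1-KO injured libraries. Differentiating keratinocyte markers (8 genes) were at 23820 to 29900, 27090 to 38280, 15180 to 22270 and 10830 to 11990 CPM in the same order. Both keratinocyte sums were thus lower in Nf1-KO than in control injured libraries without overlap, the groups in which Fkbp5 and Zbtb16 were also lower. In uninjured skin, skeletal muscle markers (9 genes) were at 744 to 1147 CPM in control and 143 to 541 in Nf1-KO libraries, without overlap, beside the higher Fkbp5, Zbtb16 and Glul of the latter. Macrophage sums (156 to 194 against 196 to 255 CPM) and melanocyte sums (21.8 to 31.5 against 34.1 to 117) also separated the genotypes there, higher in Nf1-KO libraries. In injured skin, Schwann cell sums were 242 to 311 CPM in control and 318 to 455 in Nf1-KO libraries, without overlap. Of 104 cell type markers tested, edgeR called 0 between genotypes. An unadjusted p under 0.05 was reached by 26 of 104 in uninjured skin, against 8.34% of all genes. In injured skin 20 of 104 reached it, against 10.7%. DESeq2 called 5 and 2, against 0.303% and 0.439% of the genes to which it gave an adjusted p. No keratinocyte, hair follicle, adipocyte, muscle or macrophage marker was at 0 counts in a whole group. The part of these markers in the values of the 10 genes was not tested.

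**Figure D3:**
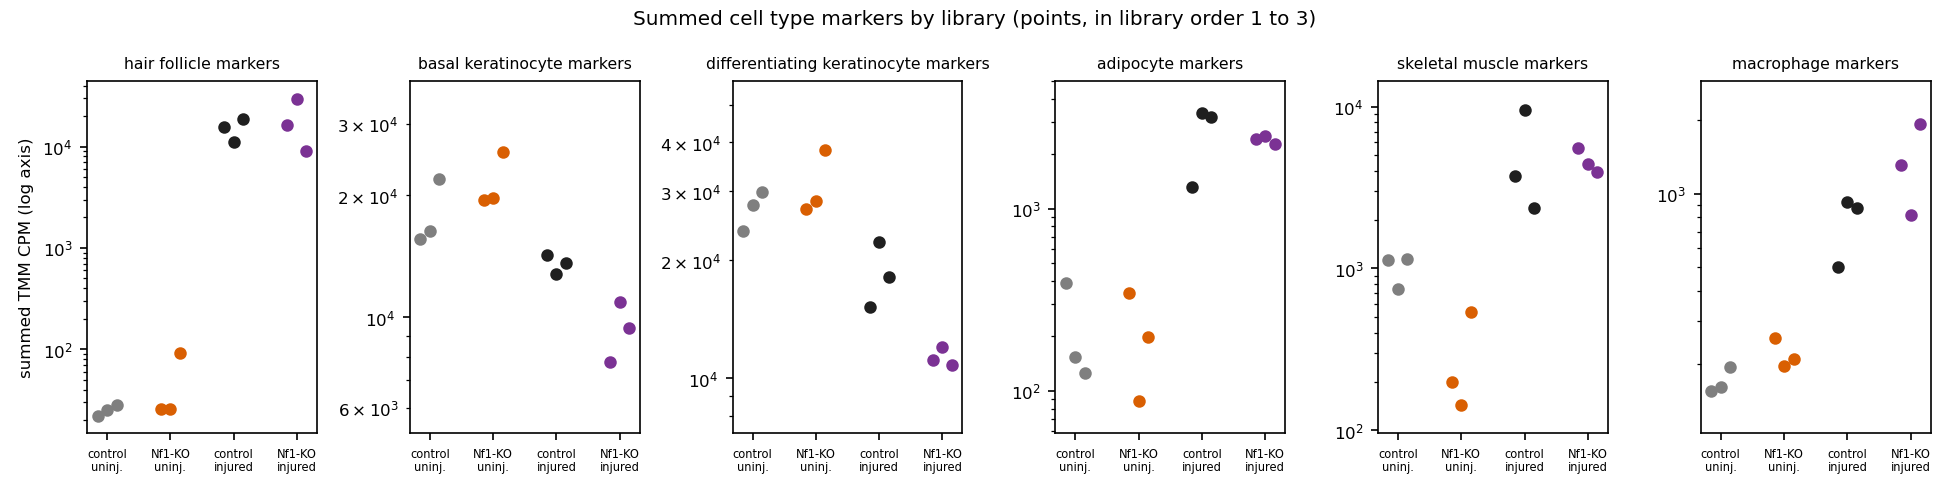
Summed CPM of textbook markers of 6 cell types in each library on log axes, one panel per cell type with its own range; points are libraries 1 to 3 of a group. Hair follicle markers run from 22.1 to 92.0 in uninjured and from 9009 to 29570 in injured skin, and both keratinocyte sums are lowest in Nf1-KO injured libraries.

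A further 44 textbook targets of the hormone were examined, of which 43 were tested and Tat, with 22 counts over all libraries, was not. Like the other lists, this one was chosen with earlier results of these data known, so its shares are a description. With injury the 43 moved in both directions. In control skin 18 rose and 11 fell (67.4% called, against 55.3% of all genes). In Nf1-KO skin 14 rose and 15 fell (67.4%, against 37.4%). The median log2 fold change was 0.32 in control skin (all genes -0.21) and -0.04 in Nf1-KO skin (all genes -0.09). In both genotypes 14 rose, 10 fell and 0 went opposite ways. The 14 included metabolic genes: Pck1, the rate-limiting enzyme of gluconeogenesis, went from 1.98 ± 1.08 to 35.7 ± 19.4 CPM in control (SD, n = 3, edgeR adjusted p = 0.000102) and from 1.82 ± 1.17 to 28.4 ± 1.30 in Nf1-KO skin (adjusted p = 0.00016). The lipase inhibitor gene Angptl4 rose 7.20-fold and 7.26-fold, and the lipid droplet gene Plin4 rose 5.62-fold in control skin (adjusted p = 1.633e-05). Pck1, Angptl4 and Plin4 are also expressed by adipocytes, whose markers were higher in the same libraries, as given above. The cell cycle inhibitor gene Cdkn1c rose from 5.14 ± 1.58 to 33.8 ± 10.6 CPM in control (adjusted p = 4.851e-06) and from 8.58 ± 1.84 to 41.9 ± 5.22 in Nf1-KO skin (adjusted p = 1.493e-05).

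Of the 10 that fell in both, the arrestin family gene Arrdc3 fell from 452 ± 173 to 65.1 ± 9.91 CPM in control (SD, n = 3, log2 -2.80 ± 0.29, edgeR adjusted p = 4.008e-06) and from 331 ± 85.7 to 53.8 ± 8.76 in Nf1-KO skin (-2.62 ± 0.28, adjusted p = 4.975e-06). Il1r2, a decoy receptor that sequesters interleukin-1, fell from 189 ± 16.2 to 47.4 ± 16.4 CPM and from 197 ± 10.5 to 36.2 ± 4.86 (edgeR adjusted p = 1.462e-05 and 1.91e-06). Per2, a clock gene that the receptor regulates directly, fell 5.20-fold and 4.61-fold, and the transcriptional repressor gene Bcl6 fell 2.85-fold in Nf1-KO skin (adjusted p = 7.354e-05). In control skin alone 5 genes were called: Dusp1 fell, and Cebpb, Mt1, Cdkn1a and Foxo3 rose. In Nf1-KO skin alone 5 were called, all lower: Hif3a, Pik3r1, Klf15, Foxo1 and Fam107a. These 10 genes were named after their values were seen. None of the 43 was called for the difference between the injury responses by edgeR or DESeq2 (8 had an unadjusted p under 0.05, against 10.8% of all genes).

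Between genotypes none of the 43 further targets was called in either skin state by edgeR or DESeq2. In uninjured skin 12 had an unadjusted p under 0.05, 10 of them higher in Nf1-KO skin (Cdkn1a, Cdkn1c, Fam107a, Foxo1, Foxo3, Irs2, Mertk, Mt1, Mt2 and Pik3r1) and 2 lower (Dusp1 and Fbxo32). Over all genes 8.34% had such a p. The median log2 fold change of the 43 was 0.20, against -0.04 for all genes. In injured skin 2 had an unadjusted p under 0.05 (against 10.7% of all genes), Cebpd higher and Arrdc2 lower, and the median was -0.09, against 0.12 for all genes. Mt1 and Mt2 encode metallothioneins, which bind zinc and copper and respond to metals as well as to the hormone, and Dusp1 encodes a phosphatase that switches off MAP kinases. The smallest p belonged to Foxo3 in uninjured skin (24.3 ± 1.88 to 47.2 ± 17.1 CPM, log2 0.96 ± 0.23, edgeR adjusted p = 0.353) and to Arrdc2 in injured skin (19.4 ± 0.629 to 12.5 ± 2.98, -0.63 ± 0.21, adjusted p = 0.355). Fewer than 29 of the 43 were called with injury in control skin without control uninjured libraries 1 and 2. That fit keeps 1 library of the group.

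**Figure D4:**
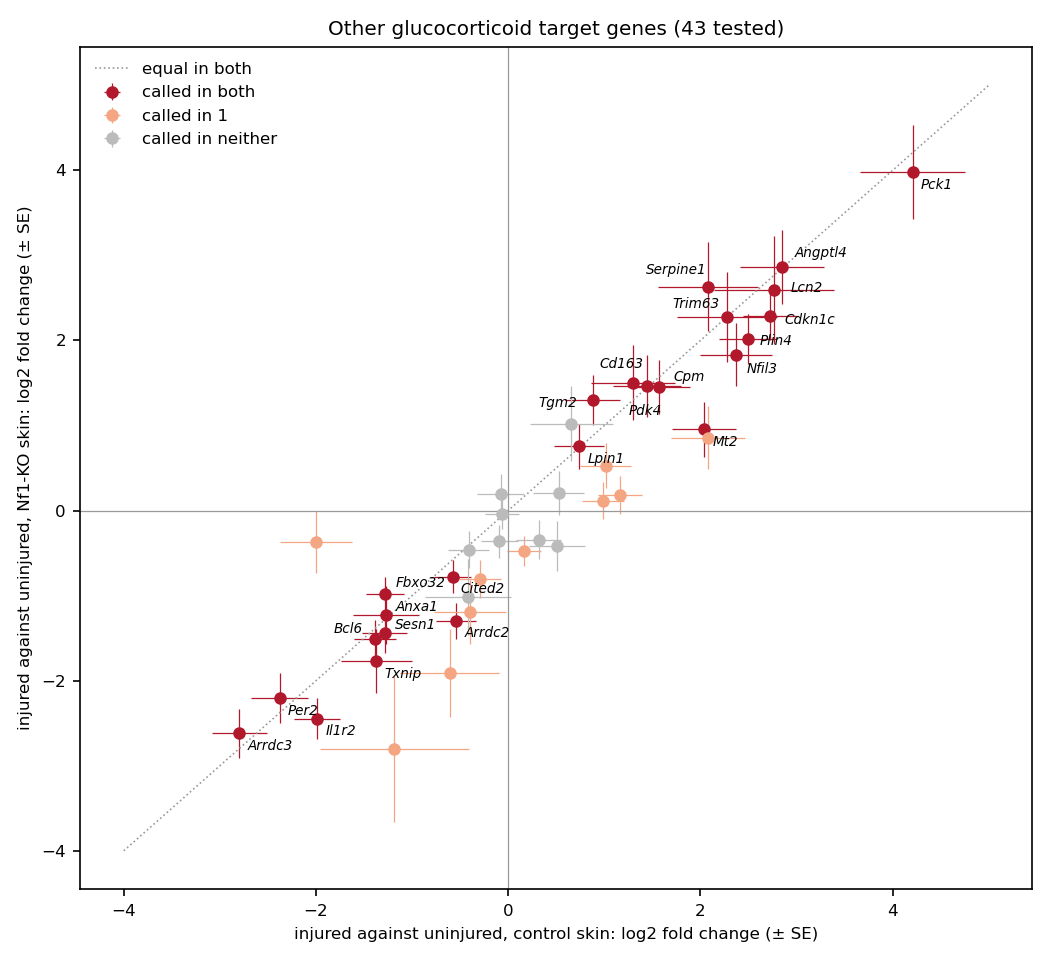
Log2 fold change with injury in control skin (horizontal) against that in Nf1-KO skin (vertical) for the 43 further target genes, with standard errors; dark red points were called in both genotypes and are named, light points in 1, grey in neither, and the dotted line marks equal values. The 24 genes called in both lie in the lower left (10) and upper right (14) quadrants.

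Genes that make, convert or transport the hormone, with its second receptor, were mostly scarce. Of 20, 14 were tested; 4 rose and 3 fell in control skin, and 3 rose and 3 fell in Nf1-KO skin (7 of 14 and 42.9% called, against the same 55.3% and 37.4%). H6pd, which supplies the cofactor for the Hsd11b1 reaction, rose in both, from 8.51 ± 1.67 to 19.9 ± 3.20 CPM in control (SD, n = 3, edgeR adjusted p = 0.001509) and from 5.11 ± 1.66 to 19.5 ± 4.28 in Nf1-KO skin (adjusted p = 7.943e-05). Hsd11b2, which inactivates the hormone, rose from 0.388 ± 0.282 to 4.05 ± 1.48 CPM in control skin (adjusted p = 0.003024) and was not called in Nf1-KO skin (1.16 ± 1.35 to 3.06 ± 1.92, adjusted p = 0.1439). The mineralocorticoid receptor gene Nr3c2, which also binds glucocorticoids, fell from 4.54 ± 1.22 to 1.43 ± 0.396 CPM in control (edgeR adjusted p = 0.002631) and from 3.55 ± 0.894 to 1.61 ± 0.124 in Nf1-KO skin (adjusted p = 0.03191). The drug and steroid efflux pump gene Abcb1b fell 2.21-fold and 1.88-fold. Akr1c18, a steroid reductase, rose in control skin (log2 2.59 ± 0.65, edgeR adjusted p = 0.007354), and Hsd3b6, a steroidogenic dehydrogenase, rose in Nf1-KO skin (3.54 ± 0.64, adjusted p = 0.0008684). The calls of Nr3c2 and Akr1c18 in control skin were lost without control uninjured libraries 1 and 2, which leaves 1 library in that group. Their log2 fold changes were then -1.23 and 1.93. The others called were Cyp11a1, which rose, and Cyp11b1, which fell, in control skin, and Crhr1, which rose, and Srd5a1, which fell, in Nf1-KO skin, the call of Srd5a1 being lost in 7 settings. Between genotypes neither edgeR nor DESeq2 called any of the 14. An unadjusted p under 0.05 was reached by 2 in uninjured and 0 in injured skin, against 8.34% and 10.7% of all genes.

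Among 12 chaperones of the receptor complex, 5 rose and 0 fell in control skin, and 3 rose and 1 fell in Nf1-KO skin (41.7% and 33.3% called, against 55.3% and 37.4% of all genes tested). Hsp90aa1, an HSP90 isoform, rose from 85.7 ± 15.2 to 192 ± 35.2 CPM in control (SD, n = 3, edgeR adjusted p = 0.0003533) and from 123 ± 16.9 to 194 ± 22.7 in Nf1-KO skin (adjusted p = 0.01986). Dnaja1, an HSP40 co-chaperone, and Ptges3, the p23 co-chaperone, rose 1.45-fold and 1.47-fold in control skin, and Hsp90ab1 and Hspa8 rose 2.02-fold and 2.05-fold there. In Nf1-KO skin the calls were fragile: that of Ptges3 was lost in 13 settings, of Dnaja1 in 8, of Bag1, which fell, in 5 and of Hsp90aa1 in 3. Of 14 coregulators, Crebbp rose and Ncoa2 and Nrip1 fell in control skin (21.4% called), with the calls lost in 6, 1 and 5 settings. In Nf1-KO skin none of the 14 was called by edgeR or DESeq2, 0 had an unadjusted p under 0.05, and Smarca4 had the smallest p (edgeR adjusted p = 0.1982). Between genotypes neither tool called a chaperone or coregulator. In uninjured skin 1 chaperone and 2 coregulators had an unadjusted p under 0.05 (against 8.34% of all genes), and in injured skin 0 of either (against 10.7%).

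Of 14 clock genes, several of which the hormone entrains, 8 fell, 1 rose and 5 were not called with injury in each genotype, and they were the same genes. That is 64.3% called, against 55.3% of all genes tested in control and 37.4% in Nf1-KO skin. Cry2, Per3, Nr1d1, Nr1d2, Dbp, Tef, Hlf and Ciart fell and Bhlhe41 rose, with median log2 fold changes over the list of -1.61 in control and -1.20 in Nf1-KO skin. Hlf, a circadian output factor, went from 82.5 ± 9.48 to 12.6 ± 2.60 CPM in control (SD, n = 3, edgeR adjusted p = 3.118e-07) and from 69.4 ± 4.94 to 15.8 ± 2.84 in Nf1-KO skin (adjusted p = 1.427e-06). Corticosterone and the clock both follow the time of day, which the labels do not give, and the part of collection time in the values of the 10 genes was not tested. Between genotypes edgeR called none of the 14 in either skin state, and Bhlhe41 had the smallest p in uninjured skin. An unadjusted p under 0.05 was reached by 2 of the 14 in uninjured skin, against 8.34% of all genes. In injured skin 3 of the 14 reached it, against 10.7%. DESeq2 called 1, Per3, higher in Nf1-KO injured skin (edgeR: 18.6 ± 2.85 to 36.5 ± 11.6 CPM, log2 0.97 ± 0.21, adjusted p = 0.3464). Of 16 immediate early genes, which respond to handling and tissue damage, 4 rose and 1 fell in each genotype, 31.2% called against 55.3% and 37.4% of all genes tested. Ier3 and Klf2 rose in both, Ier2 and Junb in control skin, Egr1 and Nr4a1 in Nf1-KO skin, and Atf3 fell in control and Klf4 in Nf1-KO skin. The call of Atf3 was lost in 8 settings and that of Nr4a1 in 4. In uninjured skin the smallest p between genotypes was that of Atf3 (19.3 ± 7.10 to 5.66 ± 2.42 CPM, log2 -1.76 ± 0.47, edgeR adjusted p = 0.448), which DESeq2 called. By edgeR none of the 16 was called between genotypes. An unadjusted p under 0.05 was reached by 3 in uninjured and 2 in injured skin, against 8.34% and 10.7% of all genes.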

How the data were processed

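RNA of 12 whole-skin samples was isolated by an RNeasy Fibrous Tissue kit, amplified by Smart-Seq v4 and made into Nextera XT libraries, which do not mark strand, per the labels' protocols. The authors deposited raw counts per Ensembl gene, 1 library per column per the file headers. The submitters' processing notes name STAR 2.5.2b, SAMtools, HTSeq 0.5.3, DESeq2, HOMER and mm10 without roles. Their annotation and strand setting: not given in the sources used here. Of 53379 IDs, 53274 matched GENCODE M21 (GRCm38), and the 105 others held at most 0.0454% of a library's counts. One column of no listed sample was not used (1 in all).

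All 12 libraries (4 groups of 3) were fitted in edgeR 4.0.16 (TMM, default filter with a count minimum of 10, robust quasi-likelihood F test, 2-sided), adjusted by Benjamini-Hochberg over 23635 genes, and called under 0.05. The fit was tested on simulated data. Alternatives were no filter, a filter of 2 CPM in 3 libraries, median-of-ratios scaling, a replicate block, the compared groups alone, each library left out, and DESeq2 1.42.0. Leaving out both control uninjured libraries of highest background was added after the data were seen, and leaves library 3 alone in that group. R 4.3.3 was used.

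The 10 genes and all lists were chosen with earlier results of these data known. Genes named by rule were the 10 genes, Nf1, and per list and contrast up to 5 called genes of smallest p (or the gene of smallest p where none was called), of which a selection is given. Further list genes, among them Pck1, Angptl4, Mt1, Mt2, Dusp1, Cyp11a1 and Cyp11b1, were named outside this rule, after their values were seen. Profile neighbours were the 5 nearest of genes averaging at least 2 CPM, predicted models left out. Reads carry no molecular identifiers. Pairs of libraries within a group differed beyond counting noise (chi-square per degree of freedom 9.55 to 87.8), so none is a copy of another. These values do not tell whether the libraries come from separate animals.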

Additional observations from a re-analysis of the deposited data

Results flagged for a closer look

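Fkbp5 and Zbtb16 differed between genotypes in opposite directions in the 2 skin states. In uninjured skin all 3 Nf1-KO libraries were above all 3 control libraries, with a log2 fold change of 1.83 for Fkbp5 and 1.25 for Zbtb16. In injured skin all Nf1-KO libraries were below all control libraries, at -0.99 and -1.36. The difference of the differences was not called by edgeR for either gene, which called 0 of 23635 genes (2541 had an unadjusted p under 0.05), and was called by DESeq2 for both among 37 genes. The 10 genes were listed with these values known.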

How the results depend on the processing

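The 10 genes' log2 fold changes were recomputed under every alternative: 873 of 920 values moved by less than 1 SD between replicates, 47 moved further and 0 called values reversed. Of the 47, 20 came from leaving out both control uninjured libraries of highest background and 11 from leaving out control uninjured library 3. For the list genes named by rule, 1229 of 1312 values kept direction and call, 72 lost the call, 11 gained it and 0 reversed. Genes called with injury in control skin numbered 13072, and 6164 without both high-background libraries; for the further target genes the counts were 29 and 17. Between uninjured genotypes, 7 genes were called in the main fit, 4 with median-of-ratios scaling, 219 without a filter, 2 with the 2 CPM filter, 1 with the replicate block, 27 from the compared groups alone, 60 by DESeq2, and 4 further targets without a filter in place of 0. Between injured genotypes the count went from 0 to 410 without a filter and 108 by DESeq2. For the difference between the injury responses it went from 0 to 236 without a filter and 37 by DESeq2, with 3 further targets without a filter. The cause of these shifts was not tested.

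Leaving out 1 library at a time gave 10915 to 14882 genes and 25 to 29 further targets for injury in control skin. It gave 5647 (without Nf1-KO uninjured library 2) to 10020 genes and 25 to 30 targets for injury in Nf1-KO skin. Between genotypes it gave 0 (without control uninjured library 1) to 12 genes in uninjured skin and 0 to 89 (without Nf1-KO injured library 2) in injured skin, and 0 to 3 for the difference between responses, with 0 targets in each. The labels number the replicates. Deviations of same-numbered libraries from their group means correlated at -0.103 to 0.38 over the genes tested. The correlation was over 0.1 in 0 of 3 pairs for each injury comparison and in 2 of 3 for each genotype comparison. The numbers were not taken to pair the samples, though for the genotype comparisons these values do not settle whether they do. With the replicate block, 12740 genes were called for injury in control skin, 8173 for injury in Nf1-KO skin, 1 between uninjured genotypes and 0 for the other contrasts. DESeq2 put 29.9% of its calls for injury in control skin in the higher direction, against 41.3% by edgeR, and 39.9% against 50.9% in Nf1-KO skin. The gene sets differed, 49676 for DESeq2 and 23635 for edgeR. Without a filter, on 49676 genes, edgeR put 33.4% in control and 45.4% in Nf1-KO skin in that direction.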
